A study of Mus musculus with 6 samples.

Results

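Cytosolic ribosomal protein genes encode the protein subunits of the ribosomes that translate nuclear mRNAs. Members were chosen by symbol: Rpl or Rps followed by a number and an optional a, x or y, together with Rplp0, Rplp1, Rplp2 and Rpsa, leaving out symbols that start with Rps6k and entries that join several genes. The rule found 75 genes among 25649 entries under 1 name, 45 of the large (60S) subunit and 30 of the small (40S) subunit. A mean of at least 1 FPKM (fragments divided by transcript length and library size) over the samples was required for testing, and all 75 were among the 10751 genes that met it. RNA was sequenced from leukemia cells of 6 C57BL/6J mice with leukemia from cells transduced with MLL-AF9, a fusion oncogene. The vehicle group held 3 mice, and the 3 mice of the other group had received 80 mg/kg of DS-5272, an inhibitor of the binding of p53 to MDM2, by mouth. Bone marrow leukemia cells were sorted 24 h after dosing. In the study's model a retroviral vector drives the fusion gene in bone marrow progenitors, and the leukemia is passed through recipient mice, which keep their own blood and stromal cells. The ages of the mice and the sort gate of these samples were not used here. Depth was estimated from the steps between low FPKM values of 2271 genes with a single long transcript, at 43000000, 34900000 and 38300000 fragments with vehicle (replicates 1, 2 and 3, the order of all values given by sample) and 32100000, 28100000 and 23400000 with DS-5272. Every vehicle library was deeper than every DS-5272 library.

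Each ribosome carries a copy of most ribosomal proteins, and cells make these proteins in near equal numbers from mRNAs that are among the most abundant in growing cells. Their mRNAs begin with a run of pyrimidines that ties their translation to mTOR signalling, and their promoters rarely rely on a TATA box. Some free ribosomal proteins, above all those of the particle formed with the small ribosomal RNA of the large subunit, bind MDM2 and thereby protect p53, and loss of a copy of several ribosomal protein genes causes Diamond-Blackfan anemia.

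The leukemia markers that could be measured were present in the sorted cells. All 9 of the 11 listed leukemia markers with an entry of their own were above the minimum. Their summed levels were 3844, 3858 and 4370 FPKM with vehicle and 2451, 2342 and 2346 FPKM with DS-5272, and Ctsg, a granule protease, was the most abundant. Hoxa9 and Hoxa10 were the listed markers without an entry of their own. Whether the RNA came from leukemia cells alone was not tested. By limma, 3 of the 9 rose and 4 fell as deposited, against 24% and 22.3% of all genes tested. The granule enzyme gene Mpo was at 218, 140 and 325 FPKM with vehicle and 3.77, 12.2 and 3.25 FPKM with DS-5272 (−5.07, adjusted p = 0.00143 from limma), and the integrin gene Itgam was at 140, 175 and 190 FPKM and at 530, 646 and 1087 FPKM (2.1, adjusted p = 0.00319 from limma). The 12 myeloid maturation genes summed to 467, 1899 and 2544 FPKM with vehicle and 5087, 12670 and 21190 FPKM with DS-5272, with 10 of 12 higher by limma (12 with the block, all genes tested 24% and 30%) and the iron-carrier gene Lcn2 the most abundant. Markers of bone marrow macrophages (7 measured) summed to 45.9, 68.7 and 93.1 FPKM against 388, 124 and 148 FPKM. Vcam1, the most abundant, made up 36.6, 64.1 and 82.8 FPKM of this with vehicle and 143, 74.8 and 85.7 FPKM with DS-5272, and its groups overlapped. The paper reports, by mass cytometry, more VCAM-1 protein with DS-5272 in c-Kit+ cells of this leukemia model. Vcam1 is therefore not particular to macrophages in this model. The other 6 macrophage markers were higher in every DS-5272 sample, and 4 of the 7 rose by limma as deposited (5 with the block). Erythroid markers (6 with an entry, Hba-a1 the most abundant) summed to 4.68, 2.62 and 2.52 FPKM against 146, 27.4 and 12.8 FPKM. Both lists were highest in DS-5272 replicate 1. Stroma and endothelium markers (7 with an entry, Pecam1 the most abundant, Col1a2, Cdh5 and Kdr under 0.1 FPKM) summed to 59.99, 31.1 and 29.1 FPKM against 112, 73.4 and 81.1 FPKM. Pecam1 alone made up 58.8, 28.7 and 26.4 FPKM of this with vehicle and 109, 68.3 and 74.5 FPKM with DS-5272. Summed B cell markers (8, led by Cd79b) did not exceed 5.40 FPKM, T cell markers (6, led by Lat) 6.23 FPKM, NK cell markers (7, led by Gzma) 3.75 FPKM and megakaryocyte markers (6, led by Itga2b) 8.20 FPKM in any sample, with Ebf1, Pax5, Ms4a1, Igll1, Cd3d, Cd8a, Klrd1, Eomes and Prf1 under 0.1 FPKM. The T cell, NK cell and megakaryocyte sums were higher in every DS-5272 sample than in any vehicle sample. They too were highest in DS-5272 replicate 1. The B cell sums were lower in every DS-5272 sample. These marker levels and the depth moved with treatment, and their part in the results was not tested. In bulk samples, fewer cells of a type and less RNA per cell cannot be told apart.

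Ribosomal protein transcripts took a smaller share of the measured transcript pool in every DS-5272 sample than in any vehicle sample. Their share of the summed FPKM was 15.4%, 17.1% and 16.9% with vehicle and 12.5%, 13.3% and 12.6% with DS-5272. The means were 16.5% ± 0.907 (SD, n = 3) and 12.8% ± 0.445 (SD, n = 3), a difference of −3.66 percentage points and a ratio of 0.778. The summed FPKM of the 75 genes itself was 68734, 84148 and 84662 with vehicle and 62419, 77250 and 83385 with DS-5272, with means of 79180 ± 9051 and 74350 ± 10780 (SD, n = 3), a ratio of 0.939. These sums overlapped between the groups, and the difference between the means was within the spread of either group. Within each replicate number the sum was lower with DS-5272, with ratios of 0.908, 0.918 and 0.985. The rest of the pool summed to 376582, 407952 and 416579 FPKM with vehicle and 436810, 502634 and 577799 FPKM with DS-5272, a ratio of 1.26 with no overlap. No p is given for the share, a score over members, and 3 mice against 3 could not go below 0.1 in an exact two-sided permutation test.

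**Figure D1:**
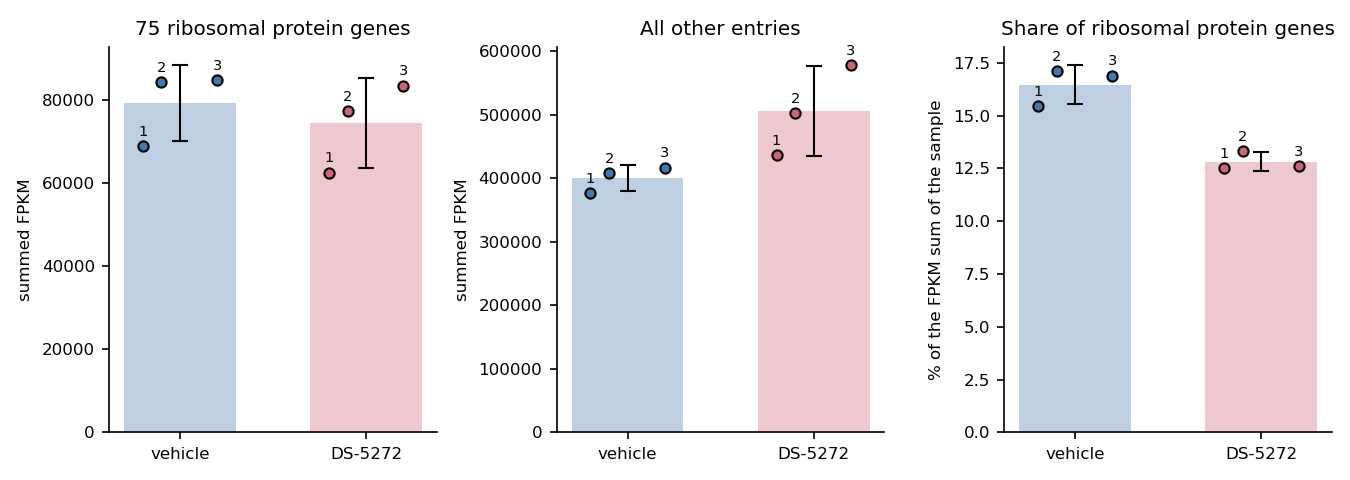
Summed FPKM of the 75 ribosomal protein genes, summed FPKM of all other entries, and the share of the ribosomal protein genes in percent, by group; bars are means, error bars are SD (n = 3 mice) and points carry the replicate number. The ribosomal protein sums overlapped between the groups, the sums of the rest did not, and the share lay between 15.4% and 17.1% with vehicle and between 12.5% and 13.3% with DS-5272.

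Some of the most abundant genes outside the ribosome were those that were high with DS-5272. The 20 other genes with the highest mean over all 6 samples held 5.71%, 6.43% and 6.69% of the summed FPKM with vehicle and 8.21%, 9.84% and 11.1% with DS-5272. Genes high in DS-5272 samples alone enter by this ranking, so a higher share with DS-5272 is partly built in. Among them were the lysozyme gene Lyz2, at 889, 989 and 1127 FPKM with vehicle and 6108, 6870 and 8815 FPKM with DS-5272, and the calprotectin gene S100a9, at 34.9, 325 and 487 FPKM against 1109, 3892 and 6366 FPKM. Lyz2 and S100a9 were chosen after their values were seen. Over the genes tested alone the ribosomal protein share was 16.1%, 17.8% and 17.5% with vehicle and 13.1%, 13.9% and 13.2% with DS-5272.

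At the level of single genes the question was how many members differed between vehicle and DS-5272, with FPKM as deposited and after each sample was scaled to a common total. As deposited, 2 of the 75 genes fell at an adjusted p under 0.05 from limma, Rps2 and Rpl14, against 22.3% of all genes tested, and 0 rose, against 24% of all genes tested. At an unadjusted p under 0.05, 4 members were lower and 0 were higher by limma, against 2825 and 3141 of the 10751 genes tested. The log2 fold change was negative for 57 and positive for 18 members, with a median of −0.11 and a range from −0.56 to 0.37. This median depended on single mice, lying between −0.21 and 0.01 when each was left out in turn, with the positive value without DS-5272 replicate 1. With the replicate number as a block in the limma fit, 21 members fell (25.1% of all genes tested) and 4 rose (30% of all genes tested). Groups did not overlap for 7 members that were lower (30% of all genes tested) and for 0 that were higher (31.8%).

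After scaling to a common total 59 of the 75 genes fell by limma, against 32.1% of all genes tested, and 0 rose, against 15.3%. With the block these counts were 61 (40.7% of all genes tested) and 0 (19.9%). At an unadjusted p under 0.05 from limma the counts were 61 lower and 0 higher (4068 and 1925 of the 10751 genes tested), and 65 and 0 with the block (4794 and 2361). The scaling also moved the median of all genes tested from 0.04 to −0.20 on the log2 scale, and the split of called genes from 2578 higher and 2394 lower to 1641 higher and 3454 lower. The members' median at the common total was −0.37, with a range from −0.83 to 0.11. Relative to the median of all genes the members stood at −0.15 as deposited and −0.18 at the common total, with 59 and 62 of the 75 below that median. At the common total 66 members were lower without overlap between the groups (41.1% of all genes tested) and 0 were higher without overlap (20.1%). Scaling turned the sign of 15 members from positive to negative, and Rps9, Rps19 and Rps27 alone kept a positive log2 fold change.

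**Figure D2:**
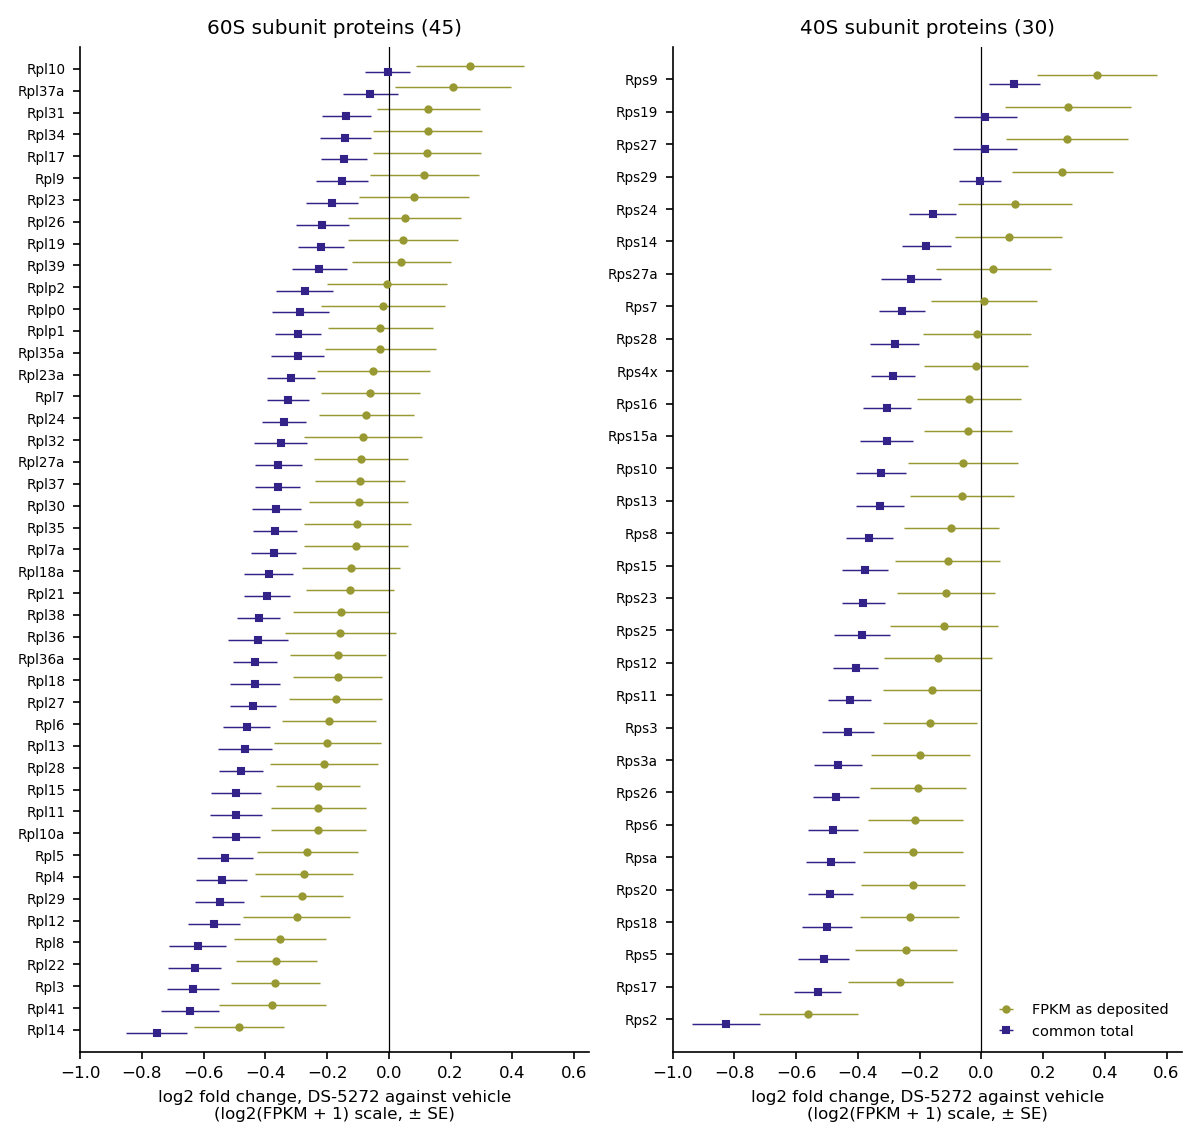
Log2 fold change, DS-5272 minus vehicle, with its standard error from limma (n = 3 mice a group) for the 45 genes of the 60S subunit and the 30 genes of the 40S subunit, with FPKM as deposited (olive circles) and at a common total (indigo squares). The order of the genes is nearly the same on both scales, the deposited values range from −0.56 to 0.37, and the scaled values from −0.83 to 0.11, so that 15 members change sign.

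Members differed less within a group once scaled. The coefficient of variation of a member over the 3 mice of a group had a median of 11.3% with vehicle (7.66% to 17.7%) and 14.6% with DS-5272 (9.58% to 25.5%) as deposited, and of 5.51% (1.84% to 11.9%) and 4.54% (0.72% to 14.2%) at the common total. As deposited, the members' median deviation from their own mean was −0.14, 0.15 and 0.16 on the log2 scale with vehicle and −0.29, 0.01 and 0.11 with DS-5272. Replicate 1 of both groups was low for the members as a group on that scale. At the common total the same deviations were 0.10, 0.25 and 0.23 with vehicle and −0.21, −0.13 and −0.22 with DS-5272, and the groups were apart.

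The members lie on 19 chromosomes, 4 of them on X, and were among the most abundant transcripts. They made up 49 of the 100 and 70 of the 200 most abundant genes tested, with ranks from 6 to 1171 and a median level of 1014 FPKM. Rpl28 was the most abundant (mean 2185 FPKM) and Rps15a the least (75.8 FPKM). The length of a gene was the median over its annotated protein-coding transcripts. It need not be that of the mRNA expressed here or the length behind the FPKM. By this measure the members had a median of 714 nt (367.5 to 3706 nt), against 2114 nt over the 9010 genes tested that had a length. Other genes of at least 500 FPKM had a median log2 fold change of 0.61 as deposited and 0.35 at the common total (n = 96), and 24.0% of them fell at the common total by limma. This class was set by the mean over all 6 samples. Genes high in DS-5272 samples alone enter it, so its higher median and lower share of falls are partly built in. Other genes with a transcript under 1000 nt had a median of 0.01 as deposited and −0.23 at the common total (n = 1632), and 35.7% of them fell at the common total, against 75.4% of the 61 members in that length class. Over the 75 members, which are not independent replicates, the log2 fold change correlated with level by 0.04 (Pearson) and 0.01 (Spearman) and with transcript length by −0.30 and −0.31 as deposited.

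The promoters of the members were compared because the members moved together at the common total. RefSeq promoter sequences (build GRCm38.p6, 250 bases before to 50 after the transcript start) were matched for 55 of the 75 members. A pyrimidine run, a C followed by at least 4 bases of C or T within the window from 20 bases before to 10 after the start, was in 35 of the 55 (63.6%) and in 37.8% of all 27025 promoters. The run had a median length of 9 bases and was at most 19 bases long among the members. Searched on both strands of the whole sequence, CCGGAAG, the core that ETS factors bind, was in 22 of the 55 (40%) and in 9.12% of all promoters. The E-box CACGTG, bound by MYC and its relatives, was in 4 (7.27%, all promoters 7.24%), the TATA box letters TATAAA in 5 (9.09%, all promoters 14.2%) and the YY1 letters AAGATGGC in 3 (5.45%, all promoters 2.88%). All promoters here include those of genes that were not tested, so these shares do not set the members against expressed genes alone. The median log2 fold change at the common total was −0.38 with a run and −0.33 without, and −0.40 with CCGGAAG and −0.34 without. The few members with the other letters stood less low, at −0.20 with CACGTG and −0.38 without, −0.29 with TATAAA and −0.37 without, and −0.29 with AAGATGGC and −0.38 without. The windows of 30 bases of the 6 members with the lowest and the 6 with the highest log2 fold change at the common total among those matched are shown 5′ to 3′, lowest first, with the longest run in capitals, to set the ends of the range side by side.
Rps2: tgcgtaggcagtcgagatctcgcgCTTCTT
Rpl14: cggcagggcgggCCCTCTCTCTTCTCgctg
Rpl41: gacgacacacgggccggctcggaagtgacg
Rpl22: ccgacttcgccctgggaaaagcaatagctg
Rpl12: gcgtgggcggagcaggatccgtCTTTTCgg
Rpl4: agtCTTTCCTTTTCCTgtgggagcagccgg
Rpl31: caCCTCTTCCTCCTCgcctccccgtgaccc
Rpl37a: gtcaCTTCCgctcgccggtctaaaaccgcg
Rpl10: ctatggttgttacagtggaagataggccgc
Rps27: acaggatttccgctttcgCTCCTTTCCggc
Rps19: agcactccgaaatctcgcgagactcgacgc
Rps9: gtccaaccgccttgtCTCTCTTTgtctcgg
A run was in the windows of Rps2, Rpl14, Rpl12 and Rpl4 at the low end and of Rpl31, Rpl37a, Rps27 and Rps9 at the high end. These windows lie at chr17:24720043-24720072 (+) for Rps2, chr9:120571497-120571526 (+) for Rpl14, chr10:128549159-128549188 (−) for Rpl41, chr4:152325706-152325735 (+) for Rpl22, chr2:32961692-32961721 (+) for Rpl12 and chr9:64173367-64173396 (+) for Rpl4. The others lie at chr1:39367831-39367860 (+) for Rpl31, chr1:72711240-72711269 (+) for Rpl37a, chrX:74270796-74270825 (+) for Rpl10, chr3:90213639-90213668 (−) for Rps27, chr7:24884572-24884601 (+) for Rps19 and chr7:3704021-3704050 (+) for Rps9. A match is a description of letters and not a binding site or an mRNA start that was measured here.

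In the large subunit 1 of 45 genes fell by limma as deposited (3 at an unadjusted p under 0.05), and 36 fell and 9 did not pass at the common total, with medians of −0.11 and −0.37. Without the block a rise was called for 0 of them on either scale, and at an unadjusted p under 0.05 from limma likewise for 0. With the block 12 fell and 1, Rpl10, rose as deposited, and 37 fell and 0 rose at the common total. Of all genes tested 22.3% fell as deposited and 32.1% at the common total (25.1% and 40.7% with the block). All 45 had a negative log2 fold change at the common total, from −0.75 to −0.0041, while 35 were negative as deposited. Groups did not overlap for 6 genes as deposited and for 41 at the common total, all lower with DS-5272, against 30% and 41.1% of all genes tested.

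Rpl14, a structural protein of the subunit, had 694, 835 and 831 FPKM with vehicle and 493, 622 and 572 FPKM with DS-5272. Every DS-5272 value was under every vehicle value, and in the log2 fold change it fell by 0.48 ± 0.15 (SE, n = 3 a group, adjusted p = 0.0326 from limma) as deposited and by 0.75 ± 0.10 (adjusted p = 0.00366) at the common total. Rpl41, the shortest ribosomal protein, was at 1790, 2094 and 2099 FPKM with vehicle and 1263, 1743 and 1630 FPKM with DS-5272. Its groups did not overlap, and its log2 fold change was −0.38 as deposited (adjusted p = 0.116 from limma, 0.00925 with the block) and −0.64 at the common total (adjusted p = 0.00449). Rpl3, which reaches the peptidyl transferase centre, had 844, 968 and 994 FPKM with vehicle and 631, 788 and 760 FPKM with DS-5272. It too was lower in every DS-5272 sample, with a log2 fold change of −0.37 as deposited (adjusted p = 0.0742 from limma, 0.00851 with the block) and −0.63 at the common total (adjusted p = 0.00377). Rpl22, which also has roles in lymphocyte development, was the least abundant of this set, with 108, 128 and 130 FPKM with vehicle and 82.2, 99.9 and 102 FPKM with DS-5272. Its highest DS-5272 value stayed under its lowest vehicle value, and its log2 fold change was −0.36 as deposited (adjusted p = 0.0584 from limma, 0.0138 with the block) and −0.63 at the common total (adjusted p = 0.00418). Rpl8 and Rpl29, named after their values were seen, complete the 6 large-subunit genes without overlap, at −0.35 and −0.28 as deposited (adjusted p = 0.0922 and 0.127 from limma, 0.00853 and 0.0205 with the block).

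The most abundant members of the large subunit outside the stalk were Rpl28 and Rpl32. Rpl28, a protein that bacterial ribosomes lack, was at 2034, 2461 and 2529 FPKM with vehicle and 1709, 2102 and 2275 FPKM with DS-5272, and the groups overlapped. Scaled, its values were 2420, 2649 and 2673 against 1814, 1921 and 1823, apart in all samples, and it fell by 0.48 (adjusted p = 0.00479 from limma); as deposited the value was −0.21 (adjusted p = 0.353, 0.0377 with the block). Rpl32, a conserved protein of the large subunit, had 1825, 2385 and 2404 FPKM with vehicle and 1742, 2137 and 2361 FPKM with DS-5272. The groups overlapped as deposited (log2 fold change −0.08, adjusted p = 0.735 from limma) and not at the common total (−0.35, adjusted p = 0.0167).

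At the other end of the large subunit stood Rpl10, which joins late and completes the site where tRNAs enter, and whose gene is on X. Its FPKM was 753, 857 and 890.2 with vehicle and 818, 1010 and 1202 with DS-5272, higher with DS-5272 within each replicate number but overlapping between groups. The log2 fold change was 0.26 as deposited (adjusted p = 0.25 from limma, 0.0463 with the block) and turned to −0.0041 at the common total (adjusted p = 0.965). Other large-subunit genes that did not pass at the common total were Rpl39, Rpl26, Rpl23, Rpl9, Rpl17, Rpl34, Rpl31 and Rpl37a, with log2 fold changes from −0.23 to −0.06 there and from 0.04 to 0.21 as deposited.

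In the small subunit 1 of 30 genes fell by limma as deposited (1 at an unadjusted p under 0.05), and 23 fell and 7 did not pass at the common total, with medians of −0.10 and −0.37. On neither scale did limma call a rise without the block, with 0 also at an unadjusted p under 0.05. With it 9 fell and 3, Rps9, Rps27 and Rps29, rose as deposited, and 24 fell and 0 rose at the common total. The shares of all genes tested given for the large subunit apply here as well. The range was wider than in the large subunit, from −0.56 to 0.37 as deposited and from −0.83 to 0.11 at the common total, where 27 genes were negative. Groups did not overlap for 1 gene as deposited and for 25 at the common total, all lower with DS-5272 (30% and 41.1% of all genes tested).

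Rps2, a protein near the entry of the mRNA channel, fell most of all 75. It had 1042, 1206 and 1217 FPKM with vehicle and 661, 913 and 789 FPKM with DS-5272, means of 1155 ± 97.8 and 788 ± 126 FPKM (SD, n = 3). No DS-5272 value reached the lowest vehicle value, and Rps2 fell by 0.56 ± 0.16 (SE, adjusted p = 0.0287 from limma) as deposited and by 0.83 ± 0.11 (adjusted p = 0.00381) at the common total. The deposited calls of Rps2 and Rpl14 did not hold when the fit left out vehicle replicate 2 (adjusted p = 0.107 and 0.125), vehicle replicate 3 (0.103 and 0.118) or DS-5272 replicate 3 (0.0588 and 0.0592) or had no filter on low values (0.0903 and 0.08), and that of Rpl14 did not hold without DS-5272 replicate 1 either (0.0596), all from limma. Exons of Rps2 overlap Snhg9 and Snora64, and the libraries kept the strand, but whether FPKM were counted by strand is not stated. Rps26 lies at the mRNA exit and had 1886, 2179 and 2225 FPKM with vehicle and 1597, 1936 and 1934 FPKM with DS-5272. Its highest DS-5272 values passed the lowest vehicle value as deposited (log2 fold change −0.20, adjusted p = 0.309 from limma, 0.04 with the block), and at the common total it fell by 0.47 (adjusted p = 0.00547) with no overlap. Rps12, a protein of the beak of the subunit's head, had 1719, 2092 and 2118 FPKM with vehicle and 1502, 1866 and 2029 FPKM with DS-5272. Here too overlap as deposited (−0.14, adjusted p = 0.533 from limma) gave way to separate groups at the common total (−0.41, adjusted p = 0.00674).

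The highest log2 fold changes of all members were also in the small subunit. Rps9, a core protein that binds the ribosomal RNA early in assembly, was at 1226, 1411 and 1456 FPKM with vehicle and 1437, 1712 and 2226 FPKM with DS-5272. DS-5272 replicate 3 was far above the other samples and replicate 1 within the vehicle range, and the log2 fold change was 0.37 ± 0.19 (SE, adjusted p = 0.154 from limma, 0.0208 with the block) as deposited and 0.11 ± 0.08 (adjusted p = 0.317) at the common total. Rps19, the gene most often mutated in Diamond-Blackfan anemia, had 531, 646 and 636 FPKM with vehicle and 576, 714 and 952 FPKM with DS-5272. Its highest value was again that of DS-5272 replicate 3, with a log2 fold change of 0.28 as deposited (adjusted p = 0.292 from limma) and 0.01 at the common total (adjusted p = 0.924). Rps27, a zinc-binding protein, had 602, 813 and 849 FPKM with vehicle and 758, 909 and 1076 FPKM with DS-5272. Its groups overlapped, with 0.28 as deposited (adjusted p = 0.278 from limma, 0.0265 with the block) and 0.01 at the common total (adjusted p = 0.937). Rps29, a small zinc-binding protein of the head, had 851, 977 and 1051 FPKM with vehicle and 977, 1164 and 1326 FPKM with DS-5272. Scaled, its 6 values lay between 1013 and 1110, and the log2 fold change turned from 0.26 (adjusted p = 0.224 from limma, 0.0248 with the block) to −0.0046 (adjusted p = 0.96). The other small-subunit genes that did not pass at the common total were Rps14, Rps24 and Rps27a.

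**Figure D3:**
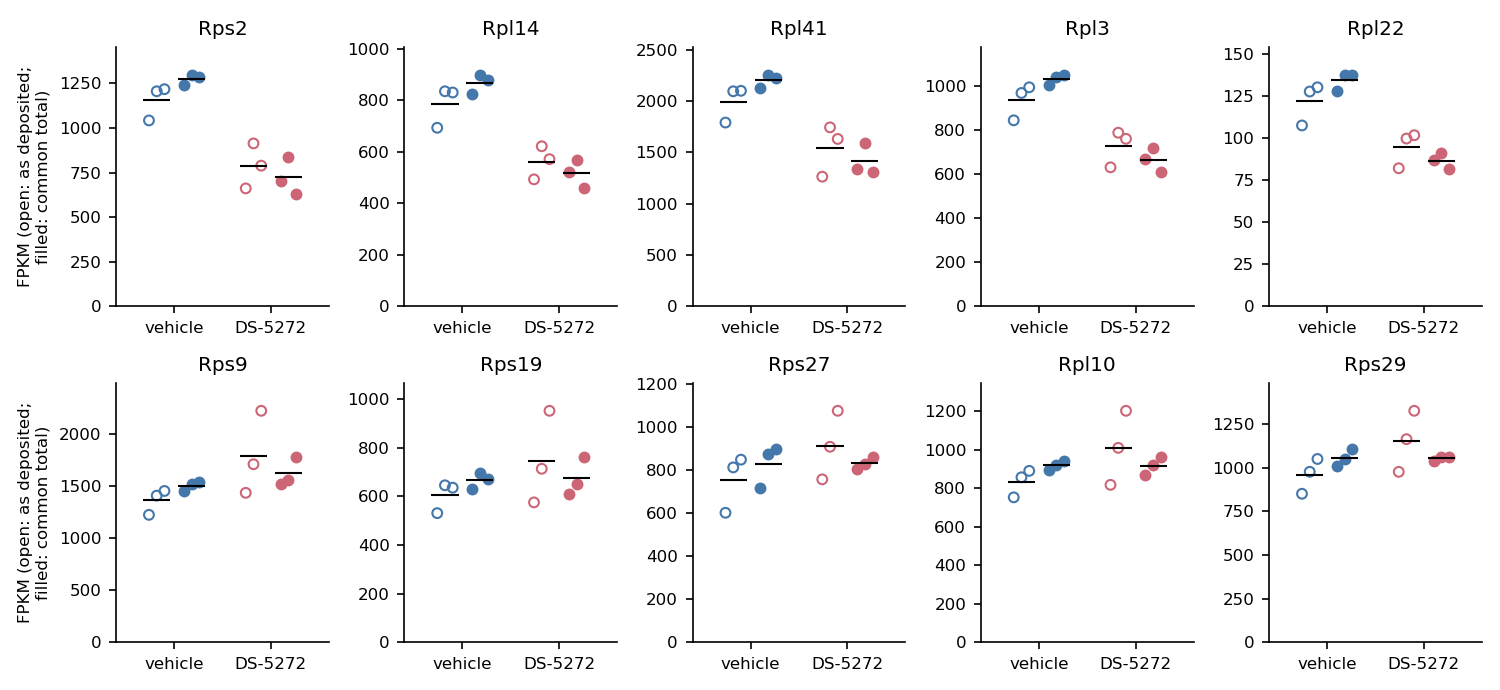
FPKM in each sample for the 5 members with the lowest and the 5 with the highest log2 fold change, as deposited (open points) and scaled to a common total (filled points), with lines at the group means (n = 3 mice). Rps2, Rpl14, Rpl41, Rpl3 and Rpl22 are lower in every DS-5272 sample on both scales, while Rps29 and Rpl10 lie higher with DS-5272 as deposited and level or slightly lower at the common total.

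Ratios within a sample, which stay the same when all its values are divided by a single factor, were taken as well and were chosen after the values were seen. FPKM of Rps9 divided by that of Rps2 was 1.18, 1.17 and 1.196 with vehicle and 2.17, 1.87 and 2.82 with DS-5272. All 3 DS-5272 ratios exceeded all vehicle ratios, with means of 1.18 ± 0.0136 and 2.29 ± 0.485 (SD, n = 3). Rps9 and Rps2 had the highest and the lowest log2 fold change of all members, so a separation in this ratio was built in by the choice. Rps2 supplied 1.52%, 1.43% and 1.44% of the members' summed FPKM with vehicle and 1.06%, 1.18% and 0.946% with DS-5272, and Rpl10 supplied 1.09%, 1.02% and 1.05% against 1.31%, 1.31% and 1.44%. The summed FPKM of the large subunit divided by that of the small subunit was 1.38, 1.39 and 1.39 with vehicle and 1.36, 1.37 and 1.35 with DS-5272. The groups did not overlap in this ratio, and its means differed by −0.0316, more than the SD of either group (0.00761 and 0.0092). Rps9, which is in the small-subunit sum, supplied 1.78%, 1.68% and 1.72% of the members' sum with vehicle and 2.30%, 2.22% and 2.67% with DS-5272. The subunit ratio without Rps9 was not taken, so it cannot be read as a shift of the whole subunits. The 5 most abundant members, Rpl28, Rpl32, Rps26, Rps12 and Rplp1, held 13.2%, 13.2% and 13.3% of the members' sum with vehicle and 13.01%, 12.9% and 12.7% with DS-5272.

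The P stalk, which recruits and activates the translation factors that hydrolyse GTP, had near equal differences in its 3 proteins. Rplp0, its base, was at 1422, 1856 and 1863 FPKM with vehicle and 1352, 1773 and 1973 FPKM with DS-5272. Rplp1, of the acidic dimers, was at 1629, 2006 and 1988 FPKM against 1568, 1935 and 2024 FPKM, and its partner Rplp2 at 905, 1204 and 1193 FPKM against 897, 1097 and 1304 FPKM. Replicate 1 was lowest in both groups for all 3 genes, and the groups overlapped. Their log2 fold changes were −0.02, −0.03 and −0.0061 as deposited, where 0 of the 3 passed by limma (0 at an unadjusted p under 0.05, adjusted p from 0.904 to 0.982), and −0.29, −0.29 and −0.27 at the common total, where all 3 fell (adjusted p = 0.0426, 0.0188 and 0.0493), as did 32.1% of all genes tested.

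Of the 7 members known to bind MDM2 or to act on p53, Rpl5 and Rpl11 stood in the lower part of the members' range and the others in its upper part. As deposited 0 of 7 passed by limma (0 at an unadjusted p under 0.05) and their median log2 fold change was 0.04, and with the block Rpl5 and Rpl11 fell. Scaled to the common total 3 of 7, Rpl5, Rpl11 and Rps7, fell, with a median of −0.23, and with the block 5 of 7 fell, Rpl26 and Rps27a included (adjusted p = 0.0347 and 0.0326 from limma). For these and the groups by role below, 22.3% of all genes tested fell and 24% rose as deposited (25.1% and 30% with the block). At the common total 32.1% of all genes tested fell and 15.3% rose (40.7% and 19.9% with the block).

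Rpl5, which binds MDM2 together with Rpl11 and the small RNA of the large subunit, was at 521, 672 and 674 FPKM with vehicle and 442, 548 and 563 FPKM with DS-5272. Vehicle replicate 1 lay inside the DS-5272 range, with a log2 fold change of −0.26 as deposited (adjusted p = 0.218 from limma, 0.025 with the block) and −0.53 at the common total (adjusted p = 0.00635). Rpl11 was at 1122, 1381 and 1365 FPKM with vehicle and 962, 1175 and 1164 FPKM with DS-5272. The same overlap was seen, with −0.23 as deposited (adjusted p = 0.26 from limma, 0.0312 with the block) and −0.49 at the common total (adjusted p = 0.00625). Rpl23, a further MDM2 binder, was at 705, 904 and 913 FPKM with vehicle and 739, 910.4 and 1025 FPKM with DS-5272. It was higher with DS-5272 within each replicate number as deposited (0.08, adjusted p = 0.726 from limma) and lower in every DS-5272 sample at the common total (−0.19, adjusted p = 0.112). Rpl26, which also binds the mRNA of p53, was at 909.7, 1144 and 1200 FPKM against 930.4, 1159 and 1290.4 FPKM. Its log2 fold change turned from 0.05 as deposited (adjusted p = 0.828 from limma) to −0.22 at the common total (adjusted p = 0.075). Rps7 was at 881, 1081 and 1095 FPKM with vehicle and 857, 1047 and 1184 FPKM with DS-5272. This MDM2 binder stood at 0.0087 as deposited (adjusted p = 0.971 from limma) and fell by 0.26 at the common total (adjusted p = 0.028). Rps14, lost in the myelodysplastic syndrome with a deletion of the long arm of a chromosome, was at 434, 507 and 531 FPKM against 422, 541 and 614 FPKM. Rps27a, made as a fusion with ubiquitin, was at 404, 522 and 537 FPKM against 401, 529 and 577 FPKM. Both overlapped between groups as deposited, and their log2 fold changes went from 0.09 and 0.04 to −0.18 and −0.23 at the common total (adjusted p = 0.104 and 0.0938 from limma).

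Members known for specialised or extraribosomal roles were 7 with an entry of their own, and besides Rpl22 and Rpl10 they were Rpl38, Rps25, Rps3, Rps6 and Rpsa. As deposited 0 of the 7 passed by limma (1 at an unadjusted p under 0.05), with a median of −0.17, and with the block 3 fell and 1 rose. At the common total 6 of 7 fell, Rpl10 being the exception, with a median of −0.43. Rpl38, needed for translation of some Hox mRNAs, was at 1029, 1172 and 1201 FPKM with vehicle and 861, 1074 and 1135 FPKM with DS-5272. Rps25, used by several internal ribosome entry sites, was at 879, 1140 and 1151 FPKM against 819.9, 1022 and 1073 FPKM. Both overlapped as deposited and not at the common total, where the log2 fold changes were −0.42 and −0.39 (adjusted p = 0.00568 and 0.0138 from limma). Rps3, also a DNA repair protein, was at 498, 621 and 608 FPKM with vehicle and 439.6, 544 and 556 FPKM with DS-5272. Rps6, the target of the kinases downstream of mTOR, was at 775, 956 and 942 FPKM against 665, 813 and 828 FPKM. Rpsa, which also serves as a laminin receptor, was at 1039, 1294 and 1277 FPKM against 880.2, 1094 and 1128 FPKM. For these 3 the log2 fold changes at the common total were −0.43, −0.48 and −0.49 (adjusted p = 0.00831, 0.00611 and 0.00574 from limma), with every DS-5272 sample lower. As deposited they were −0.17, −0.21 and −0.22, and Rps6 and Rpsa passed with the block (adjusted p = 0.0436 and 0.0371 from limma).

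Of the 6 proteins around the exit of the nascent chain tunnel (Rpl23a, Rpl35, Rpl19, Rpl31, Rpl17 and Rpl39), 0 passed by limma as deposited (0 at an unadjusted p under 0.05, median 0.04) and 3 fell at the common total, Rpl23a, Rpl35 and Rpl19, where the 6 ranged from −0.37 to −0.14. Of the 5 proteins of the decoding region and the head (Rps3, Rps15, Rps23, Rps12 and Rps27a), 0 passed by limma as deposited (0 at an unadjusted p under 0.05, median −0.11) and 4 fell at the common total, all but Rps27a, which fell with the block. Of the 17 genes mutated in Diamond-Blackfan anemia, 0 passed by limma as deposited (0 at an unadjusted p under 0.05, median −0.06), 1 rose and 4 fell with the block, and 12 fell at the common total (13 with the block). Their log2 fold changes at the common total ranged from −0.53 for Rpl5 to 0.01 for Rps19. The others that did not pass there were Rps24, Rpl26, Rpl31 and Rps29.

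A pair of ribosomal proteins, Rps21 and Rpl13a, were present only in entries that join several genes and were left out of the 75. The entry of Rps21, a small-subunit protein, with Mir3091 was at 421, 545 and 581 FPKM with vehicle and 412, 511 and 542 FPKM with DS-5272, a log2 fold change of −0.08 as deposited and −0.34 at the common total. The entry of Rpl13a, known for silencing translation in interferon-treated monocytes, with Mir5121 and Snord33 was at 776, 989.7 and 1002 FPKM against 640, 798 and 827 FPKM, a log2 fold change of −0.29 and −0.56. Both were lower at the common total in every DS-5272 sample. These entries hold more than 1 gene, so their values cannot be given to the ribosomal protein alone.

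Ribosomal proteins under other symbols included Fau and Rack1 (entered as Gnb2l1). Fau, a fusion of a ubiquitin-like protein and a small-subunit protein, was at 787, 1013 and 1003 FPKM with vehicle and 896, 1113 and 1277 FPKM with DS-5272. Its groups overlapped, and its log2 fold change of 0.22 as deposited turned to −0.04 at the common total (adjusted p = 0.345 and 0.699 from limma). Gnb2l1, a scaffold for kinases on the small subunit, was at 929, 1119 and 1136 FPKM against 818, 1008 and 1058 FPKM. Its groups overlapped as deposited (−0.15, adjusted p = 0.473 from limma), and at the common total it fell by 0.41 (adjusted p = 0.00705) with every DS-5272 sample lower.

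Among relatives of ribosomal proteins outside the rule, calls went both ways. Of 15 listed, 7 had an entry and 5 were tested. By limma 1 rose and 1 fell as deposited, against 24% and 22.3% of all genes tested. At the common total 1 rose and 2 fell, against 15.3% and 32.1%. Rpl3l, a muscle relative of Rpl3, was at 0.463, 1.10 and 0.576 FPKM with vehicle and 3.84, 6.63 and 5.74 FPKM with DS-5272. It was higher in every DS-5272 sample and rose by 1.90 ± 0.22 (SE, adjusted p = 0.00238 from limma) as deposited and by 1.73 at the common total (adjusted p = 0.00261). Its mean with vehicle was 0.712 FPKM, under the minimum for testing, so it was admitted through its DS-5272 values. With no filter on low values its log2 fold change was 1.90 (adjusted p = 0.00703 from limma). Relative to the FPKM of Rpl3 it was at 0.0548%, 0.113% and 0.0579% with vehicle and 0.609%, 0.842% and 0.754% with DS-5272. Rpl7l1, a relative of Rpl7 that acts in ribosome assembly, was at 50.7, 49.1 and 50.9 FPKM with vehicle and 39.3, 42.8 and 35.4 FPKM with DS-5272. The groups did not overlap, and it fell by 0.36 as deposited (adjusted p = 0.0272 from limma) and by 0.62 at the common total (adjusted p = 0.0197). In limma fits that left out vehicle replicate 1, 2 or 3 its deposited call did not hold (adjusted p = 0.0795, 0.0836 and 0.101). Rpl22l1, the paralog that Rpl22 represses, was at 33.8, 45.7 and 48.7 FPKM with vehicle and 36.4, 46.6 and 45.2 FPKM with DS-5272, with 0.0099 as deposited and −0.25 at the common total (adjusted p = 0.966 and 0.144 from limma). As a share of Rpl22 it was 31.4%, 35.7% and 37.4% with vehicle and 44.3%, 46.6% and 44.4% with DS-5272, higher in every DS-5272 sample. Rpl36al, a copy of Rpl36a, was at 495, 582 and 592 FPKM with vehicle and 473, 531 and 499.9 FPKM with DS-5272, and fell only at the common total (−0.41, adjusted p = 0.0181 from limma; −0.15 as deposited). Rps27l, a relative of Rps27 that p53 is known to induce, was at 160.2, 149.6 and 156 FPKM with vehicle and 137, 147 and 239.9 FPKM with DS-5272. DS-5272 replicate 3 was the highest and replicate 1 the lowest sample, and the log2 fold change turned from 0.12 to −0.14 at the common total (adjusted p = 0.664 and 0.455 from limma).

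Trp53, Mdm2 and Mdm4 stand at the other end of the p53 checkpoint. Trp53 mRNA was at 84.1, 63.9 and 70.8 FPKM with vehicle and 41.5, 44.8 and 29.96 FPKM with DS-5272, lower in every DS-5272 sample, and fell by 0.91 as deposited and by 1.17 at the common total (adjusted p = 0.0087 and 0.0115 from limma). Mdm2, the ubiquitin ligase of p53 and itself a p53 target, was at 27.1, 36.3 and 39.99 FPKM with vehicle and 42.6, 78.8 and 209.6 FPKM with DS-5272. The groups did not overlap, but the spread with DS-5272 was wide, with a log2 fold change of 1.36 as deposited (adjusted p = 0.0736 from limma, 0.0151 with the block and 0.0168 without DS-5272 replicate 1) and 1.10 at the common total (adjusted p = 0.077, 0.0242 with the block). Mdm4, the partner of Mdm2, was at 18.6, 18.9 and 18.6 FPKM with vehicle and 21.4, 22.7 and 51.3 FPKM with DS-5272, with DS-5272 replicate 3 far above the rest (0.62 as deposited and 0.36 at the common total, adjusted p = 0.145 and 0.263 from limma). Over the 11 genes of the checkpoint list, 0 rose and 1 fell by limma as deposited (2 and 1 at an unadjusted p under 0.05, 2 and 3 with the block). Of all genes tested 24% rose and 22.3% fell (30% and 25.1% with the block). At the common total 0 of the list rose and 4 fell (2 and 5 unadjusted, 2 and 6 with the block). The shares of all genes tested were 15.3% and 32.1% there (19.9% and 40.7% with the block). The largest rise in log2 fold change in the checkpoint list, 2.43, was that of the cell cycle inhibitor Cdkn1a, at 14.8, 28.1 and 25.5 FPKM against 32.3, 117 and 485 FPKM (adjusted p = 0.0612 from limma, 0.014 with the block).

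Among genes that build ribosomes most passed the test as deposited. For this and the following lists, 22.3% of all genes tested fell and 24% rose as deposited (25.1% and 30% with the block), and 32.1% fell and 15.3% rose at the common total (40.7% and 19.9%). In the nucleolar biogenesis list 39 of 45 fell and 0 rose by limma as deposited (41 and 0 at an unadjusted p under 0.05 or with the block), and 43 fell and 0 rose at the common total (44 and 0 unadjusted or with the block), with medians of −0.87 and −1.11, beside −0.11 and −0.37 for the 75 ribosomal protein genes. Utp20, of the small-subunit processing complex, went from 13.6, 12.1 and 11.2 FPKM to 4.67, 5.07 and 2.2 FPKM (−1.47, adjusted p = 0.00578 from limma), and Bysl, the list's only positive value at 0.13 as deposited, was at 16.7, 16.5 and 16.1 FPKM against 19.4, 19.4 and 15.8 FPKM (−0.12 at the common total). Chaperones and importers that carry ribosomal proteins to the nucleus had 11 of 12 lower and 0 higher on both scales by limma, adjusted or not, with medians of −0.60 and −0.86. The importin gene Ipo5 was at 59.5, 59.2 and 58.0 FPKM with vehicle and 24.2, 30.8 and 13.1 FPKM with DS-5272 (−1.42, adjusted p = 0.00865), and Pdcd2l at 9.05, 8.56 and 9.08 FPKM against 8.88, 9.04 and 9.27 FPKM (0.02 as deposited and −0.22 at the common total). Mitochondrial ribosomal proteins, which serve the separate ribosome of that organelle, had 46 of 72 lower and 2 higher as deposited (49 and 3 with the block) and 57 lower and 0 higher (1 at an unadjusted p under 0.05, 65 and 1 with the block) by limma at the common total, with medians of −0.43 and −0.69. Mrps22 fell most, from 18.2, 15.5 and 14.99 FPKM to 8.49, 7.56 and 5.21 FPKM (−1.11, adjusted p = 0.00492 from limma), and Mrpl52 rose most, from 55.8, 59.6 and 58.9 FPKM to 110.0, 91.1 and 93.8 FPKM (0.74, adjusted p = 0.00388), losing its call at the common total (0.48, adjusted p = 0.0513, 0.0249 with the block).

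Among the factors that work on the ribosome, 18 of 31 initiation factors fell and 1 rose as deposited (21 and 3 with the block), and 26 fell and 1 rose at the common total, with medians of −0.39 and −0.66. The exchange factor subunit Eif2b3 fell most (20.7, 21.4 and 22.2 FPKM against 13.1, 14.3 and 8.07 FPKM, −0.84, adjusted p = 0.0147 from limma), and its partner Eif2b2 rose (36.3, 46.9 and 43.3 FPKM against 59.0, 64.7 and 71.6 FPKM, 0.62, adjusted p = 0.0105). Elongation and termination factors had 3 of 10 lower and 0 higher (5 and 0 at an unadjusted p under 0.05, 6 lower with the block) by limma as deposited and 7 lower and 0 higher (8 and 0 unadjusted or with the block) at the common total, with medians of −0.36 and −0.63. The recycling factor Abce1 was at 77.2, 69.5 and 70.5 FPKM with vehicle and 46.9, 51.6 and 27.2 FPKM with DS-5272 (−0.83, adjusted p = 0.0269), and the release factor Etf1 at 69.5, 80.6 and 86.8 FPKM against 67.2, 99.96 and 96.6 FPKM (0.14 as deposited and −0.13 at the common total). Other mRNAs known to start with a pyrimidine run had 5 of 15 lower and 0 higher by limma as deposited (7 and 0 at an unadjusted p under 0.05, 10 and 2 with the block) and 13 lower and 0 higher at the common total (also unadjusted), with medians of −0.27 and −0.53. The histone chaperone gene Nap1l1 was at 295, 319.6 and 319 FPKM with vehicle and 110.5, 157 and 91.1 FPKM with DS-5272 (−1.41, adjusted p = 0.00374), and the intermediate filament gene Vim at 309, 497 and 509.7 FPKM against 346, 643 and 868 FPKM (0.43, adjusted p = 0.357, 0.0326 with the block). Genes of the signalling that controls translation of ribosomal protein mRNAs had 3 of 19 higher and 1 lower as deposited and 2 higher and 4 lower at the common total (2 and 5 with the block), with medians of 0.05 and −0.20. The mTOR inhibitor gene Sesn2 rose from 7.79, 6.98 and 6.81 FPKM to 20.3, 24.2 and 52.7 FPKM (1.91, adjusted p = 0.00599), and the RNA-binding protein gene Larp4 fell from 20.7, 19.2 and 19.7 FPKM to 14.6, 15.3 and 11.6 FPKM (−0.50, adjusted p = 0.016). Of 10 genes used in every cell, 2 rose and 4 fell as deposited (4 and 4 with the block) and 2 rose and 6 fell at the common total (3 and 6 with the block), with Tubb5 at 708, 673 and 627 FPKM against 275, 477 and 204 FPKM (−1.16, adjusted p = 0.0191 from limma).

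**Figure D4:**
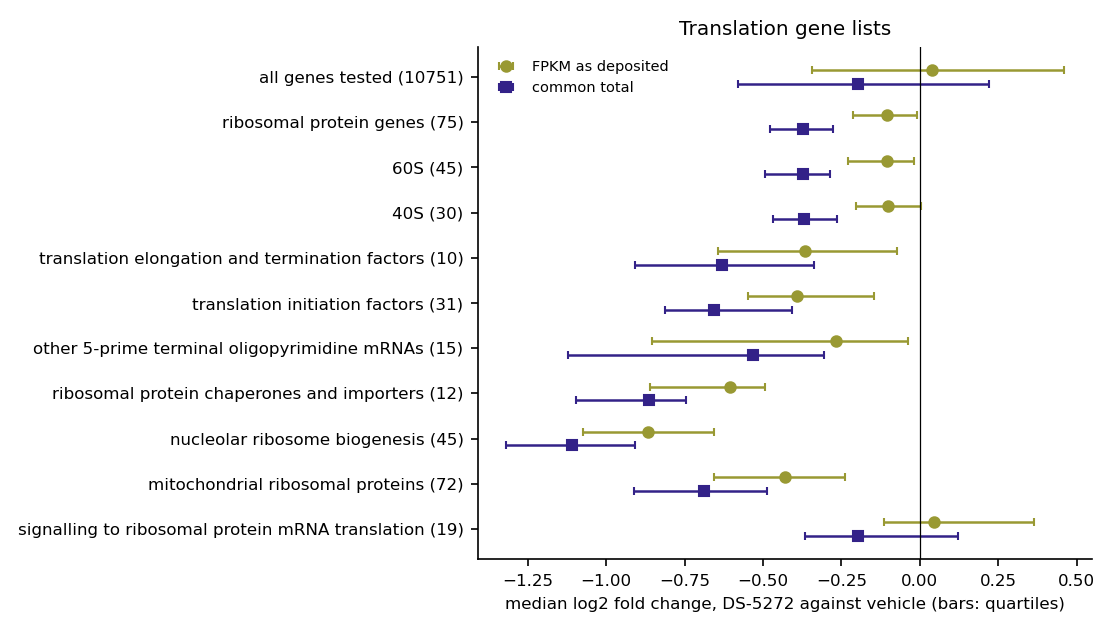
Median log2 fold change (points) and quartiles (lines) of the tested genes of each list, DS-5272 minus vehicle, with FPKM as deposited and at a common total. The 75 ribosomal protein genes have medians of −0.11 and −0.37, nearer to the medians of all genes tested, 0.04 and −0.20, than the nucleolar biogenesis genes at −0.87 and −1.11.

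Samples of the groups share replicate numbers, and the members were followed within each number. As deposited 62, 59 and 44 of the 75 were lower with DS-5272 in replicates 1, 2 and 3, with median log2 differences of −0.14, −0.15 and −0.04, and 44 were lower and 13 higher in all 3. At the common total 71, 73 and 72 were lower, with medians of −0.30, −0.38 and −0.44, and 69 were lower and 1, Rps9, higher in all 3. The order of the members was nearly alike in each: over the 75 members the differences correlated by 0.90 (Spearman 0.89) between numbers 1 and 2, 0.93 (0.92) between 1 and 3 and 0.94 (0.94) between 2 and 3. The points of each correlation are genes measured in the same libraries and are not independent.

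**Figure D5:**
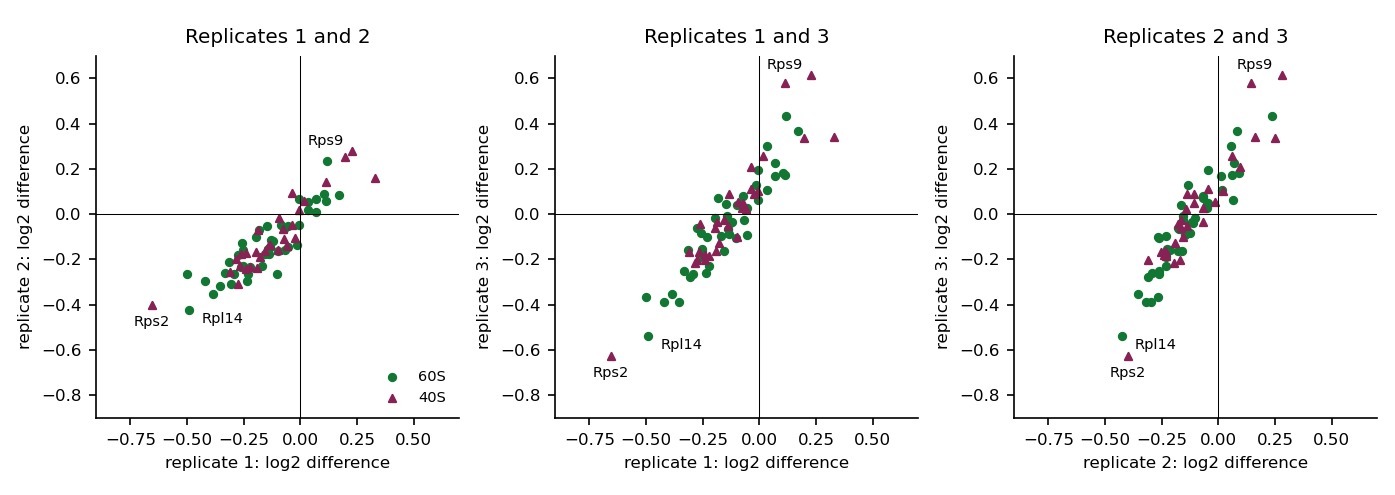
Log2 difference in FPKM as deposited, DS-5272 minus vehicle, of the 75 members in samples that share a replicate number, plotted for each pair of numbers against each other; each point is a gene. The points lie along a rising line with Pearson correlations of 0.90, 0.93 and 0.94, and more of them are under 0 in numbers 1 and 2 (62 and 59) than in number 3 (44).

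Gene structure bears on how exactly the levels are known. Exons of 36 of the 75 members overlap another annotated gene, 26 on the same strand and 18 on the other, and small nucleolar RNAs lie within 29 members, 54 in all. The 29 hosts had a median log2 fold change of −0.39 at the common total and the other 46 members −0.35. The annotation names 292 pseudogenes after 58 of the members, and 1 of them had an entry, at most 0.00755% of the members' sum, so fragments shared between a member and its other copies cannot be told apart here.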

How the data were processed

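RNA-seq libraries of 6 mice, 3 a group, were used as the FPKM values the authors deposited. Per the submitters' processing notes they trimmed reads with cutadapt 1.8.1, checked them with FastQC, aligned them to GRCm38 with TopHat2 2.1.1 and computed FPKM with Cufflinks 2.2.1, so the values are not counts and no count model was used. Of 26632 lines, those joining several genes (433) were left out and lines of the same symbol were summed. Log2(FPKM + 1) of 10751 genes was compared with limma 3.58.1 in R 4.3.3 (lmFit, eBayes with trend, two-sided, Benjamini-Hochberg over all genes, called under 0.05), and again after each sample was scaled to the mean FPKM total. Python 3.11.15, numpy 2.4.6, pandas 2.3.3 and matplotlib 3.10.9 made the descriptions. The code was tested on simulated data. Depth came from the steps of low FPKM values and gives the scale only, so no counting intervals were derived.

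Members, roles and lists were chosen with earlier results of these data known. Values were given for the 5 most abundant members, the 5 lowest and 5 highest deposited log2 fold changes, all members of the p53, stalk and specialised roles, tested relatives, ribosomal proteins under other symbols, Trp53, Mdm2, Mdm4 and the largest change each way of other ribosome-related lists and the leukemia and everyday-use lists. Where the rule names a gene absent from the text, its values are not reported here. Lyz2, S100a9, Rpl8, Rpl29, Rpl12 and Rpl4 and the ratios were chosen after their values were seen. Overlaps and transcript lengths came from the GENCODE annotation of GRCm38.

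Labels number replicates 1 to 3 in both groups and name no shared day or litter. Over all genes tested, deviations from the group mean had correlations of 0.658, 0.21 and 0.431 between samples of equal number (−0.574 to 0.336 otherwise, limit 0.1), and over the 75 members 0.211, 0.002 and 0.349, with number 2 under the limit. As all 3 over all genes exceeded it, p-values blocked by number stand beside calls that they change. The highest correlation between samples of unequal number, 0.336, exceeded the limit too, so passing it does not show that the mice were paired. The p-values measure the spread between these mice. Alternatives were other scalings (upper quartile, median ratio, quantiles, totals without ribosomal proteins), a pseudocount of 0.1, no filter, a minimum of 5 FPKM, the block and leaving out each mouse. A total without the 20 most abundant other genes and joined entries kept were added after seeing the data.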

Additional observations from a re-analysis of the deposited data

How the results depend on the processing

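With FPKM as deposited the number of ribosomal protein genes called lower was 2, and it depended most on scaling. It was 59 at the common total, 61 at a common total without ribosomal proteins, 25 at a common upper quartile, 4 with median ratio factors, 62 with quantile normalization, and 0 with no filter on low values, where more genes were tested. Their median log2 fold change was −0.37 at the common total, −0.43 without ribosomal proteins and −0.38 with quantiles. It was smaller at a common upper quartile (−0.24) and with median ratio factors (−0.15). All genes called higher numbered 1641 at the common total and 1507 without ribosomal proteins, where 4006 were lower. A common total without ribosomal proteins and the 20 most abundant other genes, chosen after seeing the data, gave 56 members lower, a median of −0.38 and 1687 higher and 3746 lower genes. Scaling divides each sample by its own sum, and the sums differed between the groups. Of the genes followed through all scalings, those positive as deposited that passed with a negative sign were Rps7 (−0.26 at the common total, −0.32 without ribosomal proteins, −0.26 without the 20 genes as well, −0.18 with quantiles), Rpl26 (−0.28 without ribosomal proteins), and Rpl23, Rps14 and Rps27a (−0.21, −0.33 and −0.38 with quantiles). Rpl19, followed at the common total only, went from 0.05 to −0.22 there (adjusted p = 0.0463 from limma), and apart from the scaling itself the cause was not tested. Of the values of the followed genes under all alternatives, 565 kept their direction and side of the threshold, 103 passed newly, 12 no longer passed, 71 changed sign without passing and 8 reversed and passed.

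With the replicate number as a block 21 members were lower and 4 higher as deposited (2 and 0 without it), and the cause was not tested. Under this block Mdm2 also passed. In this balanced design the block leaves every log2 fold change as it is and changes only the p-values. Leaving out each mouse in turn gave from 0 to 2 members lower and 0 higher as deposited (0 lower without vehicle replicate 2, vehicle replicate 3 or DS-5272 replicate 3, 1 without DS-5272 replicate 1), from 1569 to 2793 genes higher and from 1360 to 2385 lower, with 1360 without vehicle replicate 2 and 1450 without vehicle replicate 3. The members' median lay from −0.21 to 0.01 as deposited, with the positive value without DS-5272 replicate 1. At the common total these fits gave from 40 to 62 members lower, medians from −0.42 to −0.35 and a difference in share from −4.18 to −3.35 percentage points. Each of these fits has fewer samples. Depth was estimated and lower with DS-5272, which limits low genes such as Rpl3l more than the ribosomal protein genes.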
